A study of Mus musculus with 8 samples.

Results

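Antioxidant and aldehyde detoxification genes were followed in bulk RNA-seq of the mouse small intestine. The set had 10 named genes: *Aldh3a1*, *Cbr3*, *Cbr1*, *Aldh1a1* and *Nqo1*, whose enzymes clear aldehydes, ketones and quinones; *Gpx2*, *Gpx1* and *Txnrd1*, which encode selenoenzymes; and *Gclc* and *Gclm*, the subunits of the enzyme that starts glutathione synthesis. All 10 were among the 11554 genes of the crypt table, and 9 of them were among the 12701 genes of the villus table, where *Aldh3a1* was not listed. The set was built by name around genes of the NRF2 type, with no numeric threshold, and *Aldh3a1* and *Cbr3* entered it because they were higher in mutant crypts and *Gpx2* because it was lower in mutant villi. These 3 genes were chosen by their measured log2 fold changes between genotypes, and the difference between genotypes is therefore given here for these genes as a description without a test.

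The libraries came from crypts and villi of Ctrl mice and of *Gli1-Ptgs* cKO (cKO) mice, with 2 libraries for each genotype and tissue, collected 1 month after tamoxifen. In cKO mice, tamoxifen-activated Gli1-CreERT2 deletes the floxed genes *Ptgs1* and *Ptgs2*, the genes of the prostaglandin-forming enzymes COX1 and COX2, and it does so in mesenchymal cells that express Gli1. The deletion is thus in cells outside the epithelium that makes up most of the RNA, and Gli1-negative mesenchymal cells keep both genes. The sample labels call the Ctrl mice WT and name Gli1-CreERT2; Rosa26-tdTomato animals, whereas a legend in the paper gives them both floxed genes and no Cre. The strain was C57BL/6, and mice of both sexes were backcrossed to it, while age was not given in the sources used here. The study's methods speak of 2 biological replicates, and nothing in the labels says whether each came from 1 mouse or a pool, so p-values measure only the spread between these libraries.

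NRF2, the product of *Nfe2l2*, is a transcription factor that KEAP1 binds and sends for degradation in resting cells. Oxidants and reactive aldehydes modify cysteines of KEAP1, NRF2 then accumulates and, paired with a small MAF protein, it binds antioxidant response elements and raises genes of glutathione synthesis, quinone reduction and aldehyde clearance. In the intestinal epithelium these enzymes meet food-borne electrophiles, lipid peroxidation products and the oxidants made by microbes and immune cells.

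Some of these genes share sequence features that the choice by name did not use. In *Gpx2*, *Gpx1* and *Txnrd1* the catalytic selenocysteine is written in the mRNA by TGA, a stop codon elsewhere, and 27 bases around that codon are given from GENCODE M21 (GRCm38) in the sense direction, with the codon in capitals.
Gpx2: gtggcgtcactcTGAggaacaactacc
Gpx1: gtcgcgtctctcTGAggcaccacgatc
Txnrd1: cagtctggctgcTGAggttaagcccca
The codon of *Gpx2* lay at chr12:76795256-76795258 on the minus strand, in exon 1 of 2. In *Gpx1* it lay at chr9:108339451-108339453 on the plus strand, also in exon 1 of 2. In *Txnrd1* it lay at chr10:82896037-82896039 on the plus strand, in the last of 14 exons, followed by a glycine codon and the stop codon.

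*Cbr1* and *Cbr3* are neighbours on chromosome 16, 72709 bases apart with 1 protein-coding gene between them, and their transcripts were 79.0% identical over an aligned stretch of 786 bases. Because reads of close copies can be assigned to the wrong gene, the longest stretch that both transcripts hold without a mismatch is shown, 50 coding bases in exon 1 of 3 in each gene.
Cbr1 and Cbr3: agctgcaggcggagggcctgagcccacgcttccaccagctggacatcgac
In *Cbr1* this stretch lay at chr16:93608111-93608160 and in *Cbr3* at chr16:93683470-93683519, both on the plus strand. No window of 100 bases of either transcript occurred in another annotated gene. In contrast, 50 of the 968 such windows of *Gpx2* (5.17%) were also found in other genes, with most of them in the pseudogene *Gpx2-ps1*, and 1 of the 2259 windows of *Aldh1a1* was shared with its neighbour *Aldh1a7*. *Gpx2* also overlaps *Fntb*, which is read from the opposite strand. The strand setting of the counting was not given in the sources used here, so reads from their overlap cannot be told apart. The longest match of *Cbr1* in another gene was to *Gm5678*, 90.6% identical over 940 bases. *Txnrd1* overlaps *Eid3* on the same strand. Neither *Gm5678* nor *Eid3* was listed in crypts or villi.

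Promoters from 250 bases before to 50 bases after the RefSeq start (GRCm38.p6) were matched by symbol for 8 of the 10 genes, all but *Aldh3a1* and *Gclc*, giving 11 windows. The core of the antioxidant response element, TGACNNNGC on either strand, was found in 2 of these 11 windows, against 12.4% of all 32851 promoter windows. Both matches are given with 10 flanking bases and with the element in capitals, in the direction of the gene, where it reads as the reverse complement.
Gclm: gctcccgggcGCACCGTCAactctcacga
Txnrd1: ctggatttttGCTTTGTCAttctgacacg
The match of *Gclm* lay at chr3:122245423-122245431, bases -134 to -126 from its start. That of *Txnrd1* lay at chr10:82859114-82859122, bases -92 to -84 from 1 of its annotated starts. TGACTCA, the site of AP-1 factors, which shares its first letters with the element, was found in 1 of the 2 windows of *Aldh1a1* and in 5.2% of all windows.
Aldh1a1: aaatgtcatcTGACTCAgtggggaaac
This match lay at chr19:20492526-20492532. TNGCGTG, the core site of the aryl hydrocarbon receptor, was in none of the 11 windows and in 5.07% of all of them.

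The tables give normalized counts, the reads per gene divided by a DESeq2 size factor of each library. The crypt libraries held 16853017 to 21121714 reads on listed genes and the villus libraries 13477600 to 15751024. Both Ctrl columns of the villus table held the same values for all 12701 genes and were counted as 1 library, so that no villus difference could be tested. Stem and Paneth cell markers were lower in the Ctrl villus library than in both Ctrl crypt libraries for 8 of 8 genes each. Enterocyte markers were higher for 9 of 10. Over all 11227 genes listed in both tissues, 73.6% were lower and 21.4% higher in this sense. Of the deleted genes, *Ptgs1* had 365, 164, 178 and 199 normalized counts in Ctrl libraries 1 and 2 and cKO libraries 1 and 2 of the crypts, and *Ptgs2* was not listed. Over genes, the difference of cKO crypt library 1 from the other 3 crypt libraries correlated with transcript length (Spearman's rho of -0.673 over 11546 genes), and those of the 2 cKO villus libraries from Ctrl did so the other way (0.543 and 0.507 over 12692 genes). The difference of cKO crypt library 2 from the mean of the Ctrl crypts also correlated with transcript length, opposite in sign to library 1 (0.311). Values for cKO library 2 alone thus carry a length trend too. These are descriptions across genes, which are not independent. Crypt values are therefore also given for cKO library 2 alone, and crypt and villus values also after a smooth curve of level on transcript length was subtracted from each library, with the length of the annotated principal transcript (this length was chosen after seeing the data).

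**Figure D1:**
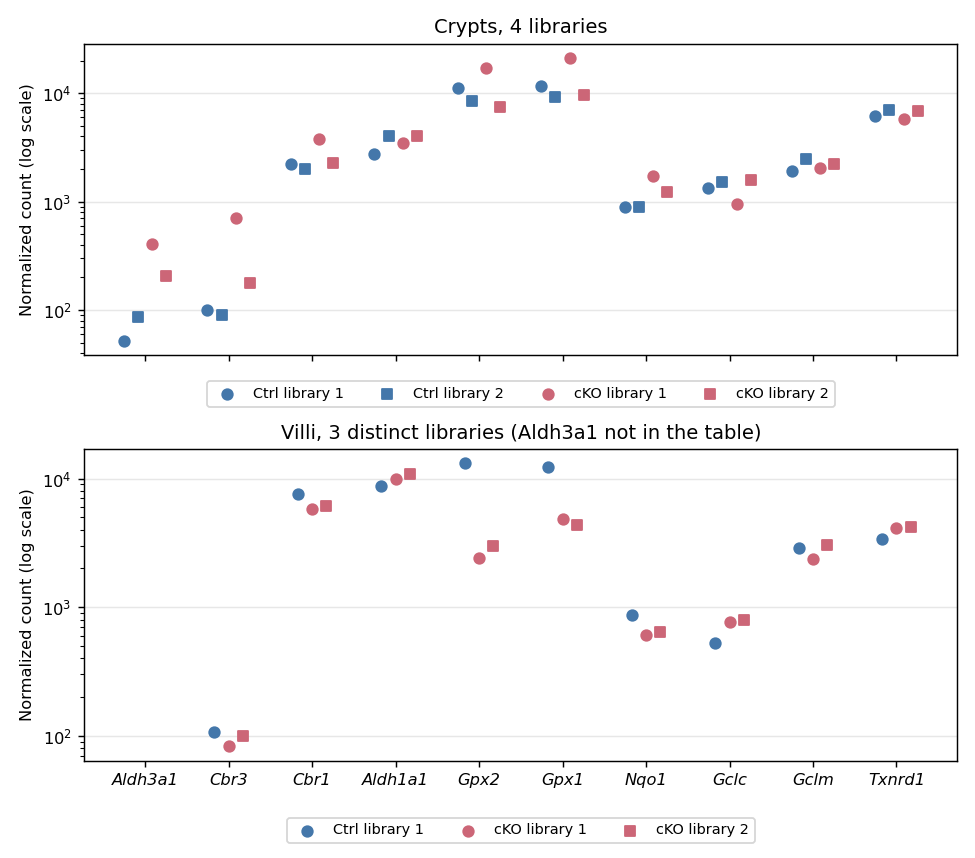
Normalized count (log scale) of each of the 10 genes in the 4 crypt libraries (top) and of 9 of them in the 3 distinct villus libraries (bottom), with Ctrl in blue, cKO in red, library 1 as circles and library 2 as squares. *Aldh3a1*, *Cbr3*, *Cbr1* and *Nqo1* lay higher in both cKO crypt libraries than in both Ctrl crypt libraries, and *Gpx2* and *Gpx1* lay furthest from Ctrl in the villi.

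In crypts, 4 of the 10 genes, *Aldh3a1*, *Cbr3*, *Cbr1* and *Nqo1*, were higher in both cKO libraries than in both Ctrl libraries, none was lower in both, and for 6 the groups overlapped. Over all genes tested, 9.73% were higher and 11.3% lower in this sense. The 10 genes had a median log2 fold change of 0.34, against -0.01 over all genes. It was 0.82 for cKO library 1 alone and 0.13 for cKO library 2 alone, and 0.16 after length correction, where the same 4 genes kept their groups apart (14% of all genes higher). *Aldh3a1* and *Cbr3* are in the set because of these values, so nothing is read from the count. Of the other 8 genes 2 were higher and 0 lower, with a median of 0.18, or 0.42 for cKO library 1, 0.07 for cKO library 2 and 0.12 after length correction.

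*Aldh3a1* encodes a dehydrogenase that oxidises medium-chain and aromatic aldehydes, among them products of lipid peroxidation, and it is best known from cornea and stomach. It gave 51.5 and 86.4 normalized counts in the Ctrl crypt libraries and 410 and 204 in the cKO crypt libraries, from 55, 96, 391 and 183 reads. Both cKO libraries stood above both Ctrl libraries, with cKO library 1 the highest. The Ctrl mean was 69.0 ± 24.7 (SD, n = 2) and the cKO mean 307 ± 145 (SD, n = 2), a log2 fold change of 2.10 (SE 0.50), which ranked 4 of 11554. For cKO library 2 alone the log2 difference from the Ctrl mean was 1.60, and after length correction the log2 fold change was 1.96. The gene (ENSMUSG00000019102) lies at chr11:61207537-61218421 on the plus strand (GRCm38).

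Markers of gastric surface and gland cells moved with *Aldh3a1*. Of 18 such markers 15 were listed in crypts, and 14 of the 15 were higher in both cKO libraries than in both Ctrl libraries. Several of them were picked out by the study in these same libraries, so the count is not independent evidence. Their summed level was 31750 and 38913 normalized counts in Ctrl and 125710 and 76585 in cKO, and *Tff1*, *Atp4a* and *Atp4b*, which encode a surface-cell peptide and both subunits of the gastric proton pump, were not listed. The part of these cells in the level of *Aldh3a1* was not tested. In bulk RNA, more cells of a type and more RNA per cell cannot be told apart. The 3 genes whose values over the 4 crypt libraries lay closest to those of *Aldh3a1*, each centred on its own mean, were *Gkn1*, *Vill* and *Slc45a3*, at root mean square log2 differences of 0.232, 0.237 and 0.237. *Gkn1*, a secreted protein of gastric surface cells, had 5588 and 7915 normalized counts in Ctrl and 32905 and 14115 in cKO crypts. With so few libraries, and with cKO library 1 apart in all of them, this likeness is a description.

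*Cbr3* encodes a carbonyl reductase that turns ketones and quinones into alcohols with NADPH. It gave 100.3 and 90.9 normalized counts in the Ctrl crypt libraries and 705 and 177 in the cKO crypt libraries. The Ctrl libraries lay close together, and cKO library 1 stood far above cKO library 2. The log2 fold change was 1.88 (SE 0.64, rank 6 of 11554), made up of 2.87 for cKO library 1 and 0.88 for cKO library 2 against the Ctrl mean. After length correction these 2 values were 2.21 and 1.03. In villi *Cbr3* had 108 normalized counts in Ctrl and 82.6 and 100.4 in cKO, a log2 difference of -0.24 that became 0.33 after length correction. The genes closest to *Cbr3* over all 7 distinct libraries were *Tomm7* and *CAAA01147332.1*, at root mean square log2 differences of 0.197 and 0.224.

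*Cbr1*, the more abundant paralog of *Cbr3*, encodes a reductase of ketones, quinones and prostaglandins, which include prostaglandin E2. It gave 2230 and 2010 normalized counts in Ctrl and 3803 and 2264 in cKO crypts, so the groups were apart, with cKO library 2 only just above the higher Ctrl library. The log2 fold change was 0.47 (SE 0.31), and for cKO library 2 alone 0.10. In villi the Ctrl library held 7637 normalized counts and the cKO libraries 5836 and 6087. The villus log2 difference of -0.36 became 0.19 after length correction, and it also turned positive with scaling by library size alone. *Cbr3* lies at chr16:93683215-93690990 (ENSMUSG00000022947) and *Cbr1* at chr16:93605853-93610505 (ENSMUSG00000051483), both on the plus strand.

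*Nqo1* encodes NAD(P)H quinone dehydrogenase, which reduces quinones by 2 electrons at once and is the classical readout of NRF2 activity. Its normalized counts were 897 and 901 in the Ctrl crypt libraries and 1722 and 1217 in the cKO crypt libraries. The Ctrl libraries were nearly equal, at 899 ± 3.05 (SD, n = 2), and both cKO libraries stood above them. The log2 fold change was 0.69 (SE 0.27), 0.44 for cKO library 2 alone and 0.52 after length correction. In villi *Nqo1* had 869 normalized counts in Ctrl and 612 and 637 in cKO, a log2 difference of -0.48. After length correction that difference was -0.06, since the curve of level on transcript length alone gave -0.42 at its length. The gene (ENSMUSG00000003849) lies at chr8:107388225-107403206 on the minus strand.

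*Aldh1a1* encodes a retinal dehydrogenase of the epithelium that also oxidises aldehydes from lipid peroxidation. It gave 2777 and 4002 normalized counts in Ctrl and 3439 and 3989 in cKO crypts, and both cKO values lay between the Ctrl values. The log2 fold change was 0.15 (SE 0.28). In villi both cKO libraries, at 9934 and 10811 normalized counts, were above the Ctrl library at 8758, a log2 difference of 0.24 that was 0.37 after length correction. The gene (ENSMUSG00000053279) lies at chr19:20492715-20643465 on the plus strand. *Aldh1a7*, its neighbour, had 260 and 464 normalized counts in Ctrl and 468 and 536 in cKO crypts.

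**Figure D2:**
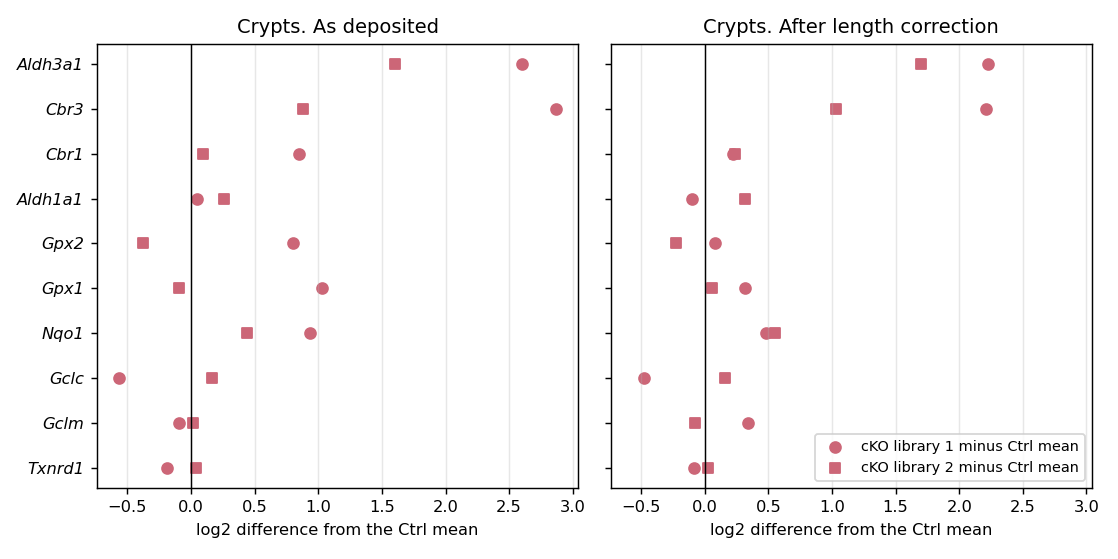
The log2 difference of cKO crypt library 1 (circles) and library 2 (squares) from the mean of both Ctrl crypt libraries for the 10 genes, from the deposited values (left) and after length correction (right). *Aldh3a1* and *Cbr3* stayed furthest to the right in both panels. The gap between the cKO libraries shrank after correction for all genes but *Aldh1a1* and *Gclm*, for which it grew.

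*Gpx2* (ENSMUSG00000042808, chr12:76792333-76795554, minus strand) encodes the gastrointestinal glutathione peroxidase, which is made mainly at the crypt base and uses glutathione to reduce hydrogen peroxide and lipid hydroperoxides. In crypts it had 11161 and 8496 normalized counts in Ctrl and 16985 and 7481 in cKO, and the groups overlapped, with cKO library 1 the highest and cKO library 2 the lowest of the 4. The crypt log2 fold change of 0.21 (SE 0.43) was -0.38 for cKO library 2 alone and -0.07 after length correction. In villi it had 13116 normalized counts in the Ctrl library and only 2402 and 2991 in the cKO libraries. The log2 differences were -2.45 and -2.13, with a mean of -2.29, which ranked 70 from the lowest of 12701. After length correction the mean difference was -1.68, and with scaling by library size alone, which put the median of all villus genes at 0.42 in place of -0.01, it was -1.86.

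*Gpx1* (ENSMUSG00000063856, chr9:108338903-108340343, plus strand) encodes the cytosolic glutathione peroxidase found in most tissues. It had 11526 and 9218 normalized counts in Ctrl and 21042 and 9634 in cKO crypts. The groups overlapped, and the log2 fold change of 0.47 (SE 0.41) was made up of 1.03 for cKO library 1 and -0.10 for cKO library 2. In villi the Ctrl library had 12268 normalized counts and the cKO libraries 4864 and 4321, a log2 difference of -1.42. That value was -0.81 after length correction and -0.99 with scaling by library size, so under both it no longer passed -1.

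Across the 9 genes listed in villi, 3 were higher and 5 lower in both cKO libraries than in the Ctrl library, and *Gclm* was mixed. Over all 12701 genes 43.7% were higher and 44.2% lower in this sense. After length correction 5 of the 9 were higher and 4 lower, where 41.2% of all genes were higher and 43.7% lower. *Gpx2*, which is in the set because of this difference, and *Gpx1* were the only 2 of the 9 lower by more than 1 on the log2 scale, where 9.4% of all genes were. Without *Gpx2* it was 1 of 8, and 0 of 8 after length correction. None of the 9 was higher by that much, against 13.4% of all genes. Marker levels of other cells differed between the same libraries. The summed level of 11 immune markers was 29042 normalized counts in the Ctrl villus library and 9299 and 10529 in the cKO libraries. Of the 11, 7 were lower and 2 higher in both, against 44.2% and 43.7% of all genes. The 10 enterocyte markers summed to 575992, 448511 and 398459, and the 8 stem cell markers to 2862, 4918 and 3874 in the same order. These sums depend on the scaling, since library size alone moved the median of all villus genes from -0.01 to 0.42. The part of these cells in the levels of *Gpx2* and *Gpx1* was not tested. *Fntb*, which overlaps *Gpx2*, had 280, 158 and 201 normalized counts in these libraries.

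The genes closest to *Gpx2* over the 7 libraries were *Map1lc3a*, *Fmc1* and *Gm11808*, at root mean square log2 differences of 0.239, 0.241 and 0.245. *Map1lc3a*, an autophagosome protein, had 485 normalized counts in the Ctrl villus library and 150 and 146 in the cKO villus libraries. Their longest transcripts measure 1112, 500 and 504 bases, and the principal transcript of *Gpx2* 1067 bases.

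**Figure D3:**
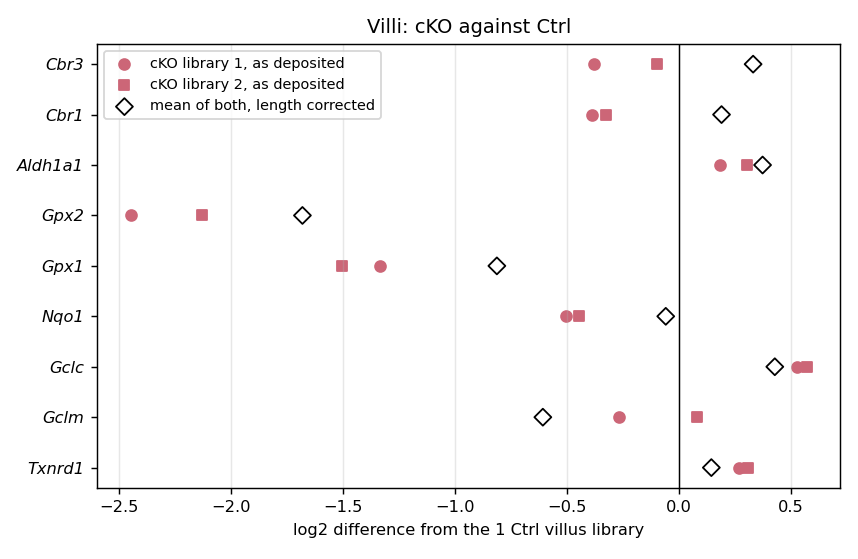
The log2 difference of cKO villus library 1 (circles) and library 2 (squares) from the single Ctrl villus library for 9 genes, with the mean of both after length correction as open diamonds. *Gpx2* and *Gpx1* lay lowest before and after the correction, at -2.29 and -1.42 before it and -1.68 and -0.81 after it, and *Cbr3* and *Cbr1* changed sides.

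*Txnrd1* (ENSMUSG00000020250, chr10:82833951-82897712, plus strand) encodes the cytosolic thioredoxin reductase, which keeps thioredoxin reduced with NADPH. It gave 6171 and 7061 normalized counts in Ctrl and 5780 and 6793 in cKO crypts, with overlapping groups and a log2 fold change of -0.08 (SE 0.26). In villi the cKO libraries, at 4087 and 4205 normalized counts, were above the Ctrl library at 3395, a log2 difference of 0.29 and 0.14 after length correction. Thus the 3 selenoenzyme genes did not share a direction in villi. Of the 24 genes with an annotated selenocysteine, 21 were listed in villi. Of these, 5 were higher and 14 lower in both cKO libraries, against 43.7% and 44.2% of all genes. Their median log2 difference was -0.74, and -0.37 after length correction. In crypts 21 were listed as well, with 3 higher and 0 lower in both cKO libraries, against 9.73% and 11.3% of all genes. Their crypt median was 0.28, or 0.08 after length correction.

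*Gclc* encodes the catalytic and *Gclm* the regulatory subunit of glutamate-cysteine ligase, the rate-limiting step of glutathione synthesis. *Gclc* had 1329 and 1524 normalized counts in Ctrl and 960 and 1597 in cKO crypts, with cKO libraries on either side of Ctrl and a log2 fold change of -0.20 (SE 0.31). *Gclm* had 1923 and 2486 in Ctrl and 2044 and 2215 in cKO crypts, with both cKO values inside the Ctrl range and a log2 fold change of -0.04 (SE 0.25). In villi *Gclc* was higher in both cKO libraries, at 765 and 788 normalized counts against 531 in Ctrl, a log2 difference of 0.55 and 0.43 after length correction. *Gclm* had 2869 normalized counts in the Ctrl villus library and 2382 and 3035 in the cKO libraries, which lay on both sides of it, a log2 difference of -0.09. After length correction that difference was -0.61, with both cKO libraries below Ctrl. The catalytic subunit was therefore above Ctrl in both cKO villus libraries and the regulatory subunit was not. *Gclc* (ENSMUSG00000032350) lies at chr9:77754535-77794485 and *Gclm* (ENSMUSG00000028124) at chr3:122245557-122270732, both on the plus strand.

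Levels of the 10 genes were compared as CPM, the reads of a gene scaled to the same total in each library, over the 11227 genes listed in both tables, per kilobase of principal transcript. In Ctrl crypts *Gpx1* was highest, at 587 and 453 CPM per kilobase in the 2 libraries, and *Gpx2* followed at 571 and 419, with values that overlapped those of *Gpx1*. *Txnrd1* (95.4 and 105), *Cbr1* (98.4 and 85.6) and *Aldh1a1* (64.3 and 89.4) came next, and each overlapped its neighbour. *Nqo1* (31.5 and 30.6) stood apart, whereas *Gclc* (21.2 and 23.5) and *Gclm* (18.8 and 23.4) overlapped. *Cbr3* (4.68 and 4.09) and *Aldh3a1* (1.63 and 2.63) were lowest, so the 2 genes with the largest crypt fold changes among the 10 were also the 2 with the lowest levels per kilobase.

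In the Ctrl villus library the CPM of most genes was lower than in Ctrl crypts, with a median log2 difference of -1.06 over all 11227 genes, and differences are also given relative to that median. There, 7 of the 9 genes were higher in CPM than both Ctrl crypt libraries and 2 were lower, against 21.4% and 73.6% of all genes. After length correction the differences of *Cbr3*, *Gpx2*, *Gpx1* and *Nqo1* turned negative, at -0.49, -0.23, -0.41 and -0.47, where the median of all genes was -1.02. *Cbr1* had 454 CPM in the Ctrl villus library and 122 and 106 CPM in Ctrl crypts, a log2 difference of 1.99 and 3.05 relative to the median. *Aldh1a1* had 520 CPM against 152 and 211, a log2 difference of 1.54 and 2.60 relative to the median. On the other side stood *Gclc*, at 31.5 CPM against 72.5 and 80.3, a log2 difference of -1.25 and -0.19 relative to the median. In the single Ctrl villus library the order per kilobase was led by *Gpx2*, at 730 CPM per kilobase, and *Gpx1*, at 680.

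The same contrast of tissues was also taken within the cKO libraries. *Gpx2* had 200.2 and 231 CPM in cKO villi and 830 and 398 CPM in cKO crypts, a log2 difference of -1.42, or -0.85 relative to the median of all genes, where the Ctrl libraries gave 0.58 and 1.64. After length correction the log2 difference was -1.33 in cKO and -0.23 in Ctrl libraries. *Gpx1* had 405 and 333 CPM in cKO villi and 1028 and 513 in cKO crypts, a log2 difference of -0.98 where Ctrl libraries gave 0.40. After length correction both were negative, at -0.90 and -0.41. Of the 9 genes, 3 (*Cbr1*, *Aldh1a1* and *Gclm*) were higher in both cKO villus libraries than in both cKO crypt libraries and 4 (*Gpx2*, *Gpx1*, *Nqo1* and *Cbr3*) were lower, against 16% and 57.7% of all genes. *Cbr1* and *Aldh1a1* kept log2 differences of 1.67 and 2.13. The tables were normalized separately and Ctrl villi have 1 library, so these differences between tissues were not tested.

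**Figure D4:**
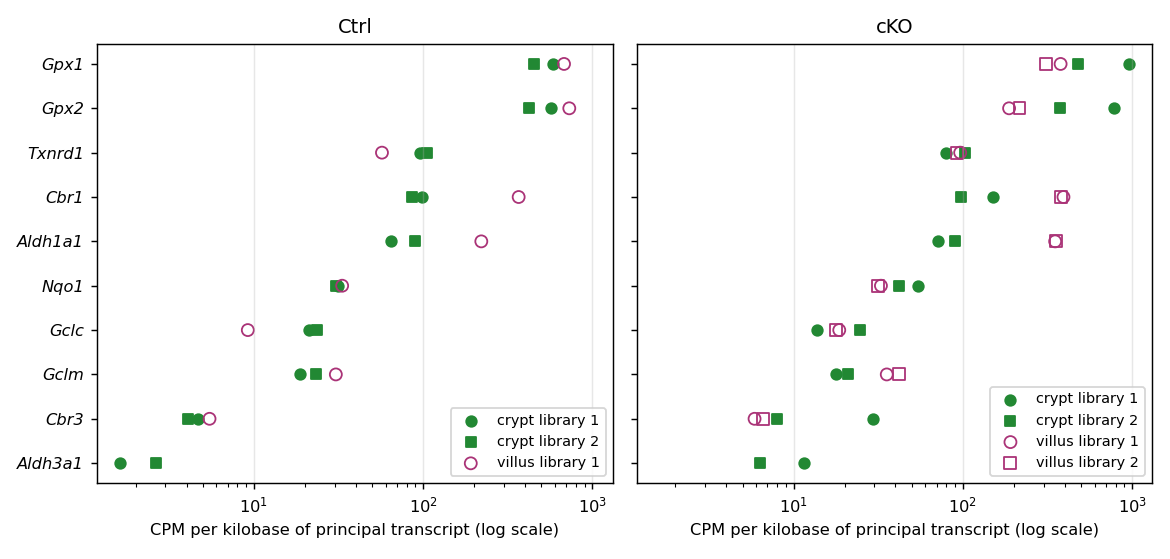
CPM per kilobase of principal transcript (log scale) of the 10 genes in Ctrl (left) and cKO libraries (right), with crypts as filled green and villi as open purple symbols, and *Aldh3a1* in crypts only. In Ctrl, villi lay to the right of crypts for 7 of 9 genes, and in cKO, both villus values of *Gpx2*, *Gpx1*, *Nqo1* and *Cbr3* lay to the left of both crypt values.

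The wider pathway was described with 9 lists of 138 other genes, of which 128 were listed in crypts and 132 in villi. In the limma fit over all 11554 crypt genes, none of the 128 had an adjusted p under 0.05 and none passed the study's threshold of an unadjusted p under 0.01 with a log2 fold change beyond 1. DESeq2 on the recovered reads put 4 of them past that threshold, all higher (*Gsta1*, *Gsta4*, *Adh7* and *Adh4*), and edgeR 0. In the limma fit 0% of all genes had an adjusted p under 0.05, and 0.173% were higher and 0.00866% lower past the study's threshold. DESeq2 put 60 higher and 5 lower past that threshold over all genes, and edgeR 20 and 3. At an unadjusted p under 0.05 the limma fit gave 4 list genes, all higher, against 0.632% of all genes. edgeR and DESeq2 gave 0 with an adjusted p under 0.05 as well, with 5 and 7 at an unadjusted p under 0.05. Their unadjusted counts over all genes were 108 and 227. The groups were apart for 28 genes higher in cKO and for 1 lower gene, *G6pdx*, against 9.73% and 11.3% of all genes, and the median log2 fold change was 0.23. After length correction 25 were higher and 12 lower, where 14% and 14.2% of all genes were, and without cKO library 1 it was 43 and 52, where 30.7% and 35.6% were. The median was 0.47 for cKO library 1 and -0.02 for cKO library 2, and 0.07 after length correction. The median of all genes was 0.0007 for cKO library 1 and -0.01 for cKO library 2. A fit with 1 cKO library left assumes that this library varies as Ctrl did. Calls from such fits are therefore listed only among the settings at the end.

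The 4 genes with an unadjusted p under 0.05 were *Adh7*, *Adh4*, *Gsta1* and *Gsta4*. *Adh7*, an alcohol dehydrogenase of the upper digestive tract that also oxidises retinol, had 52.5 and 45.9 normalized counts in Ctrl and 162 and 136 in cKO crypts (log2 fold change 1.58, SE 0.45, unadjusted p 0.011, adjusted p 0.9996 by limma). *Gsta1*, a glutathione transferase that also acts on lipid peroxidation products, had 733 and 997 in Ctrl and 3635 and 1351 in cKO crypts (1.37, SE 0.47, unadjusted p 0.0228 and adjusted p 0.9996 by limma). Both groups were apart for each of these genes. *Adh4* and *Gsta4*, named after their values were seen, gave log2 fold changes of 1.01 and 1.17 with unadjusted p-values of 0.0124 and 0.0234 by limma.

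By list, the 11 NRF2 regulators had a median crypt log2 fold change of 0.05. Of these, 2 were higher and 0 lower in both cKO libraries, or 4 and 1 after length correction. The shares of all genes were 9.73% and 11.3%, or 14% and 14.2% after length correction. *Nfe2l2*, which encodes NRF2 itself, had 5575 and 5558 normalized counts in Ctrl and 5668 and 5503 in cKO crypts, a log2 fold change of 0.00 (SE 0.24), so its mRNA differed by less than the spread of replicates. *Keap1*, which encodes its inhibitor, had 794 and 780 in Ctrl and 1187 and 972 in cKO crypts (log2 fold change 0.45, unadjusted p 0.119 by limma) and a log2 difference of -0.58 in villi. *Bach2*, a repressor that competes for the same elements, had the most negative crypt value of the list, at -0.39. *Maff*, a small MAF partner, and *Bach1*, a heme-sensing repressor, marked the villus extremes at -0.92 and 0.98.

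The glutathione S-transferases, which join glutathione to electrophiles, had 8 of 20 listed genes higher in both cKO crypt libraries and 0 lower, with a median of 0.25. After length correction 5 transferases were higher and 4 lower, with a median of -0.05, where 14% and 14.2% of all genes were apart in these directions. Among the other carbonyl and quinone reductases it was 6 of 20 and 0, with a median of 0.28, and after length correction 7 and 3, with a median of 0.13. For cKO library 2 alone the medians of these 2 lists were -0.003 and 0.02. The remaining aldehyde dehydrogenases had 3 of 14 higher and 0 lower, or 2 and 0 after length correction, with *Aldh1a7* at 0.53 and *Aldh1a2* at -0.26 as extremes. Of the other glutathione enzymes 3 of 15 were higher, and 1 after length correction, with *Gpx8*, a peroxidase of the endoplasmic reticulum, at 0.99. None of the 14 thioredoxin and peroxiredoxin genes was apart in either direction, and their median was 0.06, while 2 were lower after length correction. In the list of NADPH supply *Me1*, the cytosolic malic enzyme, had the most positive value at 0.65 and *G6pdx*, which opens the pentose phosphate pathway, the most negative at -0.13. Superoxide, peroxide, heme and iron genes had 2 of 12 higher, and the other selenoproteins 3 of 14, which stayed 2 and 3 after length correction, when 1 gene of the first list was lower, with *Ftl1*, a ferritin chain, at 0.58 and *Selenom* at 0.81 as their most positive.

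In villi, 27 of the 132 pathway genes were higher and 87 lower in both cKO libraries, and 18 were mixed. That is 20.5% and 65.9%, against 43.7% and 44.2% of all genes. After length correction 40 were higher and 74 lower, where 41.2% and 43.7% of all genes were. None was higher by more than 1, against 13.4% of all genes, and 25 were lower by more than 1, which is 18.9% against 9.4%. After length correction 3 were higher and 6 lower by that much. The median log2 difference was -0.48 and, after length correction, -0.27. With scaling by library size, which shifted the median of all genes to 0.42, the median of the lists was -0.06. Under that scaling 9 list genes were higher and 3 lower by more than 1. The shares of all genes past 1 were not counted under this scaling or after length correction. Lowest in their lists were *Pgls* of the pentose phosphate pathway at -1.54, *Gpx4*, which reduces phospholipid hydroperoxides, at -1.51, *Blvrb*, a biliverdin reductase, at -1.42, *Akr7a5*, an aldehyde reductase, at -1.36 and *Gstp1* at -1.31. *Gpx4* had 20632 normalized counts in Ctrl and 6935 and 7616 in cKO villi, and its value after length correction on the longest transcript was -0.80. By contrast *Cat*, which encodes catalase, had 4426 normalized counts in Ctrl and 5543 and 5871 in cKO villi, a log2 difference of 0.37. *Aldh3a2*, the fatty aldehyde dehydrogenase, gave 0.57, and *Gsta3* gave 0.61.

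**Figure D5:**
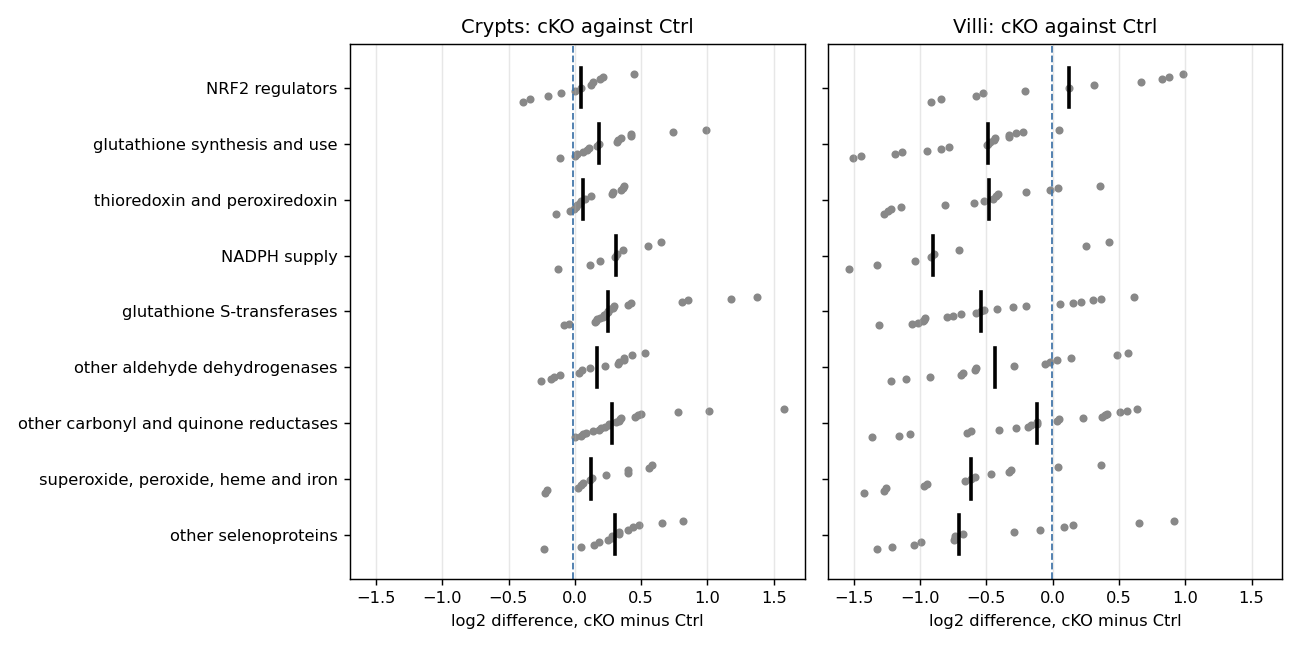
The log2 difference of cKO from Ctrl for every listed gene of 9 pathway lists in crypts (left) and villi (right), with the list's median as a black bar and the median of all genes as a dashed line. In crypts all 9 medians lay to the right of the dashed line, between 0.05 and 0.31, but 6 of the 9 were negative for cKO library 2 alone and 2 after length correction, and in villi 8 of the 9 lay to the left of the line.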

How the data were processed

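RNA of crypts and villi was sequenced by the authors, who aligned paired-end reads to mm10 with STAR and compared groups with DESeq2 (methods and submitters' processing notes). The counting program, strand setting and annotation are not given in the sources used here, and labels and methods differ in the kits they name. The deposited signal per library is a gene's count over that library's size factor. The authors' log2 fold changes, standard errors and statistics (score) and p-values were deposited beside it and not used. Unmapped columns numbered 0. Of the listed genes 0 lack an adjusted p in the tables.

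The step between values gave whole reads (100% within 0.01 read). Crypts were compared in R 4.3.3 by limma-trend, version 3.58.1, using log2(value + 1) of genes averaging at least 1 and Benjamini-Hochberg adjustment over all genes, called also at the study's threshold. Fold changes are on that scale, which understates low genes. Alternatives were edgeR 4.0.16, DESeq2 1.42.0, library size scaling, other filters, a pseudocount of 0.1, a replicate block, lowess length correction (span 0.3) and leaving out each library. The correction on principal transcripts was added after seeing the data. Sequences were compared with blastn 2.17.0. The limma fit was tested on simulated data. The genes, the lists and the rules were chosen with earlier results of these data known. From each list, the genes named are *Nfe2l2*, *Keap1*, those past the study's threshold and the extremes in each tissue. Of the genes with the pattern most like that of *Cbr3*, 1 is not reported here.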

Additional observations from a re-analysis of the deposited data

Results flagged for a closer look

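In 3 genes the cKO libraries were all above Ctrl in crypts but all below it in villi. Of all genes 9.73% were higher in crypts and 44.2% lower in villi in this sense. The share with both was not counted, so nothing is read from the number of genes. *Cbr3* is in the set because it was higher in cKO crypts. *Cbr3* had a log2 fold change of 1.88 in crypts and a log2 difference of -0.24 in villi. *Cbr1* had 0.47 in crypts and -0.36 in villi. *Nqo1* had 0.69 in crypts and -0.48 in villi. The difference between the tissues was not tested, because the villi have 1 distinct Ctrl library. The villus values of *Cbr3* and *Cbr1* turned positive with scaling by library size (0.19 and 0.07) and after length correction on the principal transcript (0.33 and 0.19), and that of *Nqo1* was -0.04 and -0.06 under these settings.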

How the results depend on the processing

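In crypts the log2 fold changes of *Aldh3a1*, *Cbr3*, *Cbr1* and *Nqo1* stayed positive under all 14 alternatives, at 1.60 to 2.60, 0.88 to 2.87, 0.10 to 0.84 and 0.44 to 0.94. The other 6 genes changed sign under at least 1 of them. The other filters and the replicate block left the log2 fold changes at those of the main fit, so not all 14 are separate checks. *Aldh3a1* and *Cbr3* were chosen for being higher in these libraries, so their steady sign is no support. In villi *Gpx2* (-2.45 to -1.68) and *Gpx1* (-1.51 to -0.75) stayed negative under all 7. *Gpx2* was chosen for being lower in these cKO villi, so its steady sign is no support either. All 7 rest on the same Ctrl villus library, and the filter on reads left the values of the main setting, so they are not separate checks. *Aldh1a1* (0.18 to 0.68), *Gclc* (0.43 to 0.98) and *Txnrd1* (0.14 to 0.72) stayed positive under all 7. *Cbr3*, *Cbr1*, *Nqo1* and *Gclm* changed sign under at least 1 of them. The median of the 10 genes in crypts ranged from 0.13 to 0.82 with 1 library left out, with the highest value without cKO library 2. The cause of the changes listed here was not tested.

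Over all crypt genes, the fit gave 20 higher and 1 lower at the study's threshold, 0 with an adjusted p and 73 with an unadjusted p under 0.05. DESeq2 gave 60, 5, 11 and 227, and 4 higher list genes in place of 0 (*Gsta1*, *Gsta4*, *Adh7* and *Adh4*, named after seeing their values). Lower genes numbered 3 with edgeR and 4 with library size scaling. The length correction gave 4 lower and 177 with an unadjusted p, with 1 list gene, and on principal transcripts 4, 190 and 2. With 1 library left out, the counts ranged from 15 to 593 higher, 3 to 288 lower, 0 to 1987 adjusted and 64 to 4000 unadjusted, and list genes from 0 to 14 at the threshold and 0 to 40 adjusted. Each highest count came without cKO library 2, and without Ctrl library 2 there were 5 lower and 4 adjusted and without cKO library 1 8 lower and 301 unadjusted.

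Same-numbered libraries share only a number, and their deviations from the group means correlated at 0.247. With the replicate block the counts were 63 higher, 15 lower, 34 adjusted and 368 unadjusted, with 4 list genes at the threshold and 2 adjusted (*Gsta1* and *Gsta4*). With the block and the length correction there were 5 lower, 322 unadjusted and 1 list gene.

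In villi, scaling by library size gave a median of 0.19 for the 9 genes, 1 gene lower by over 1, and for the lists a median of -0.065 with 9 higher and 3 lower by over 1. The length correction gave 0.030, 1, -0.24, 3 and 9, and on principal transcripts 0.14, 1, -0.27, 3 and 6. With 1 cKO villus library left out, the median of the 9 genes ranged from -0.38 to -0.10. Between Ctrl villi and Ctrl crypts their median of 0.40 was -0.42 after length correction, -0.41 on principal transcripts and 0.21 to 0.38 with 1 Ctrl crypt library left out. No paired analysis was possible in villi because both Ctrl columns are identical. Depth limits *Aldh3a1* most, which had 55 reads in Ctrl crypt library 1.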
